A study of Homo sapiens with 9 samples.

Results

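The 10 genes described here encode proteins that switch on the replication-dependent histone genes or cut and trim the 3′ ends of their mRNAs: SLBP, NPAT, CASP8AP2, LSM10, LSM11, ERI1, SYMPK, CSTF2, CPSF2 and CPSF3. They were taken from the 60609 gene identifiers of the count tables by GENCODE symbol and Ensembl identifier, all 10 were found, and all 10 were among the 21682 genes with enough reads to be tested. The cells were U2-OS, an established human osteosarcoma line, grown in DMEM with 10% fetal bovine serum. The 9 libraries were made from RNA depleted of ribosomal RNA, although the labels list the molecule as poly(A) RNA. Of these, 3 came from clone A1 and 3 from clone A4, both of which overexpress NCBP2, the cap-binding subunit of the nuclear cap-binding complex, and 3 came from empty-vector cells. Each vector library came from a clone of its own: replicate A from vector clone 2, replicate B from vector clone 3 and replicate C from vector clone 1. The spread within clone A1 or A4 is therefore between libraries of 1 clone, that within the vector group is between clones, and nothing in the labels says whether the libraries of 1 clone came from separate cultures. No agent or time point is given.

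Replication-dependent histone mRNAs are the only metazoan messenger RNAs known to end in a conserved stem-loop instead of a poly(A) tail. In dividing cells NPAT gathers at the histone gene clusters and activates their transcription, and CASP8AP2, better known as FLASH, sits in the same histone locus body. The stem-loop is bound by SLBP, the U7 small nuclear ribonucleoprotein pairs with a downstream element through its RNA and carries LSM10 and LSM11 in its ring, and LSM11 together with CASP8AP2 brings in a cleavage complex that holds SYMPK, CSTF2, CPSF2 and the nuclease CPSF3. ERI1 is an exonuclease that trims histone mRNA ends and takes part in their decay. The cap-binding complex, to which NCBP2 belongs, is known to act in this 3′ end processing. The comparison here addresses only the mRNA levels of these genes, since the processing itself was not measured.

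The sequence that SLBP recognises is shown first, since the histone mRNAs described above end in it. A stem of 6 bases that began with GG, closed by its reverse complement around a 4-base loop that began with TT, was searched for in the last 110 bases of 1 annotated transcript for each of 67 replication-dependent histone genes (GENCODE 44, GRCh38). It was present in 61 of them, in 5 different spellings. The search allowed no mismatch in the stem, so other forms of the stem-loop were not counted and the number of spellings depends on the pattern set. For each spelling the site is given of the gene with the highest mean level in these cells among genes whose annotated transcript covers the whole gene without an intron, from the DNA of the reference annotation and not from the cells' reads, with the stem and loop in capitals and up to 5 flanking bases on either side. They lie near the 3′ end of their mRNAs: H1-2 at chr6:26055740-26055764 (minus strand), H4C5 at chr6:26204996-26205021 (plus), H2BC12 at chr6:27146361-27146386 (minus), H4C9 at chr6:27139649-27139674 (plus) and H2AC20 at chr1:149887386-149887411 (plus).
H1-2: caaaaGGCTCTTTTCAGAGCCacca
H4C5: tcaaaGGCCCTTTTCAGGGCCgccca
H2BC12: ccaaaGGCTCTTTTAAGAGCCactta
H4C9: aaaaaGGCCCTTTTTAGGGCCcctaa
H2AC20: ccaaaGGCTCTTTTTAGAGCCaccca
The spelling of H1-2 was shared by 37 genes, that of H4C5 by 10, that of H2BC12 by 9 and that of H4C9 by 4, while that of H2AC20 stood alone. These transcripts were read in these libraries: H1-2, a linker histone, ranged from 296 to 621 CPM (reads per 1000000 reads assigned to genes, with library sizes scaled by the trimmed mean of M-values, TMM), and H2AC20 from 237 to 376 CPM.

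The libraries held 29234022 to 50554080 reads assigned to genes. Clone A1 replicate A stood apart, with the fewest assigned reads, 21823 genes with a read against 25390 to 29787 in the other 8, and 63.6% of its reads not assigned to a gene (unmapped, multiply placed, ambiguous or outside genes) against 44.5% to 58.1%. NCBP2 went with the labels: the vector libraries held 98.4, 90.6 and 98.3 CPM, those of clone A1 298.9, 348.4 and 304.7 CPM, and those of clone A4 796.3, 1035 and 456.2 CPM, with no overlap between any groups. Its log2 fold change against vector was 1.73 ± 0.24 (SE) in clone A1 and 2.99 ± 0.25 in clone A4 (edgeR quasi-likelihood test with Benjamini-Hochberg adjustment, adjusted p = 0.0327 and 0.000417), and clone A4 lay above clone A1 by 1.26 ± 0.24 with an adjusted p of 0.0764, which became 0.00610 (1.35 ± 0.21) when an offset for GC content and transcript length was added to the fit. Of 7 osteosarcoma line markers, RUNX2, COL1A1 and SPARC were well read in all 9 libraries, whereas the bone-forming markers SP7 and BGLAP had 1 read each over all libraries and COL1A2 stayed at or under 1.151 CPM. The last of the 7, ALPL, was low at 1.20 to 4.12 CPM. Of 9 genes chosen as markers of other cell types or as absent genes, CD3E and TERT had no reads and PECAM1, ALB and GFAP stayed at or under 0.332 CPM. The keratin gene KRT18 was read at 38.9 to 101 CPM, the epithelial genes EPCAM and CDH1 at 2.42 to 5.58 and 0.598 to 3.63 CPM, and the leukocyte gene PTPRC at 0.400 to 2.01 CPM. The summed level of the 9 was 45.4 to 82.6 CPM in clone A1, 54.2 to 65.1 CPM in clone A4 and 65.2 to 108.5 CPM in the vector libraries, and their part in the results was not tested.

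None of the 10 genes passed the test for a change with NCBP2 overexpression. At an adjusted p under 0.05 the count was 0 of 10 in clone A1 against vector, where 0.0646% of all tested genes passed (14 of 21682), and 0 of 10 in clone A4 against vector, where 0.115% passed (25). It was also 0 of 10 between the clones, A4 against A1, where 0.161% passed (35), and 0 of 10 for the 6 NCBP2 libraries together against the 3 vector libraries, where 0.0184% passed (4). For the NCBP2 libraries together NCBP2 itself was not called, at a log2 fold change of 2.50 ± 0.41 (edgeR, Benjamini-Hochberg adjusted p = 0.123). With so few genes called in all, a count of 0 among 10 says little by itself. Also at an unadjusted p under 0.05 it was 0 of 10 in each of the 4 comparisons, while 7.51%, 5.25%, 6.63% and 5.71% of all tested genes were under that value in the same order. DESeq2 and limma-voom called none of the 10 either.

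The intervals around the fold changes say more than the calls, but they treat libraries of 1 clone as independent. With only 2 clones that overexpress NCBP2, they do not cover the full spread between such clones. SLBP, CSTF2, CPSF2, CPSF3, LSM11, ERI1 and SYMPK had 95% intervals within 1 log2 unit of no change in every comparison. In clone A1 against vector the log2 fold changes ran from -0.43 for LSM10 to 0.70 for CASP8AP2, with a median of 0.09, beside a median of -0.02 over all tested genes. In clone A4 against vector they ran from -0.13 for CSTF2 to 0.32 for CASP8AP2, with a median of -0.03 beside 0.03 over all genes. Both comparisons use the same vector libraries. For the NCBP2 libraries together the range was -0.08 for LSM10 to 0.52 for CASP8AP2, with a median of 0.00 beside 0.02. The smallest adjusted p (edgeR, Benjamini-Hochberg) was 0.766 in clone A1 against vector and 0.999 for the NCBP2 libraries together.

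**Figure D1:**
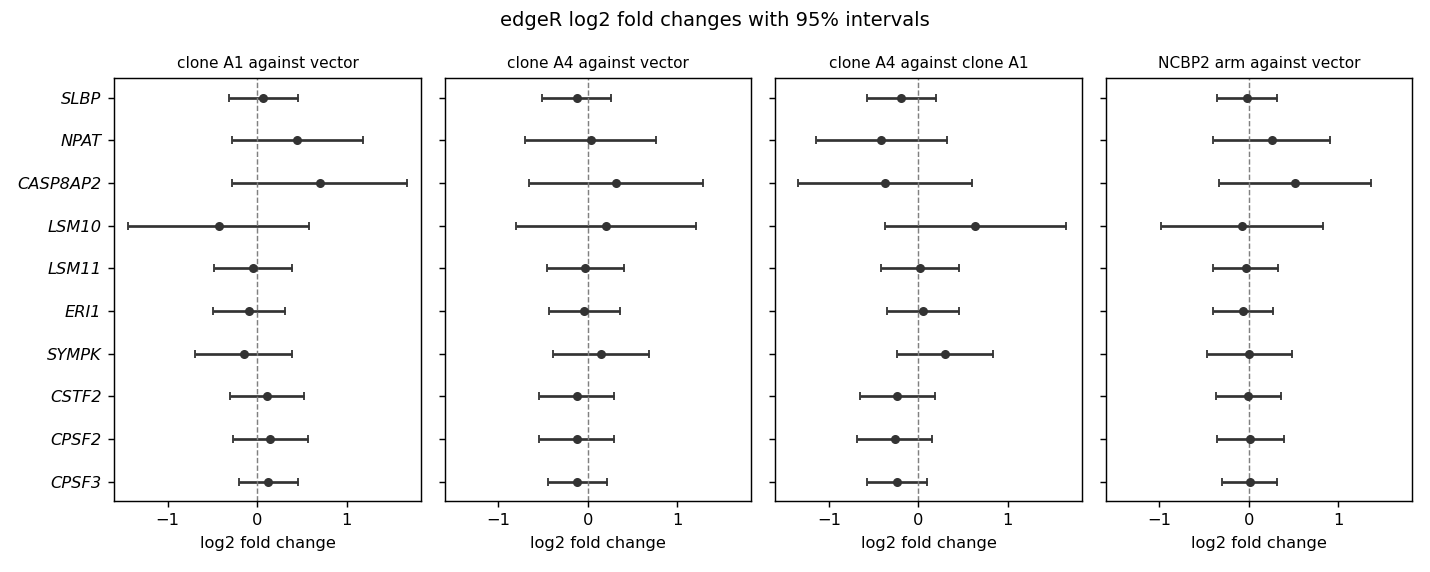
Log2 fold change of each gene (points) with its 95% interval (bars) from edgeR in the 4 comparisons, 1 per panel, with the dashed line at no change. Every interval crosses the line, and those of NPAT, CASP8AP2 and LSM10 are the widest.

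Transcription of the histone genes begins with NPAT (chr11:108157215-108222638, minus strand), a coactivator that cyclin E and CDK2 phosphorylate at the start of S phase. It was read at 151, 113 and 104 CPM in clone A1 replicates A, B and C, at 111, 54.3 and 111 for clone A4 and at 101, 47.5 and 122 CPM in the vector libraries. Clone A4 replicate B and vector replicate B were low, clone A1 replicate A was high, and the groups overlapped. The log2 fold change was 0.45 ± 0.34 (SE) in clone A1 against vector and 0.03 ± 0.34 in clone A4 against vector (edgeR, Benjamini-Hochberg adjusted p = 0.808 and 0.9997). Without vector replicate B the value for the NCBP2 libraries together went from 0.25 to -0.05.

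CASP8AP2 (chr6:89829894-89874436, plus strand), which links the histone locus body to the U7 particle, followed the same libraries with a wider swing. Its level was 108, 54.3 and 51.7 CPM in clone A1, 72.0, 27.2 and 65.8 for clone A4, and 50.2, 19.1 and 63.1 CPM in the vector libraries. The highest library, clone A1 replicate A, lay 5.68-fold above the lowest, vector replicate B, whereas the group means differed by at most 1.62-fold. In clone A1 against vector the log2 fold change was 0.70 ± 0.45 (edgeR, Benjamini-Hochberg adjusted p = 0.766), the largest value among the 10 genes but within the spread of the libraries. It was 0.27 without clone A1 replicate A and 0.33 without vector replicate B. Between the clones the value of -0.38 ± 0.45 turned to 0.06 without clone A1 replicate A and to 0.10 in limma-voom with library weights.

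**Figure D2:**
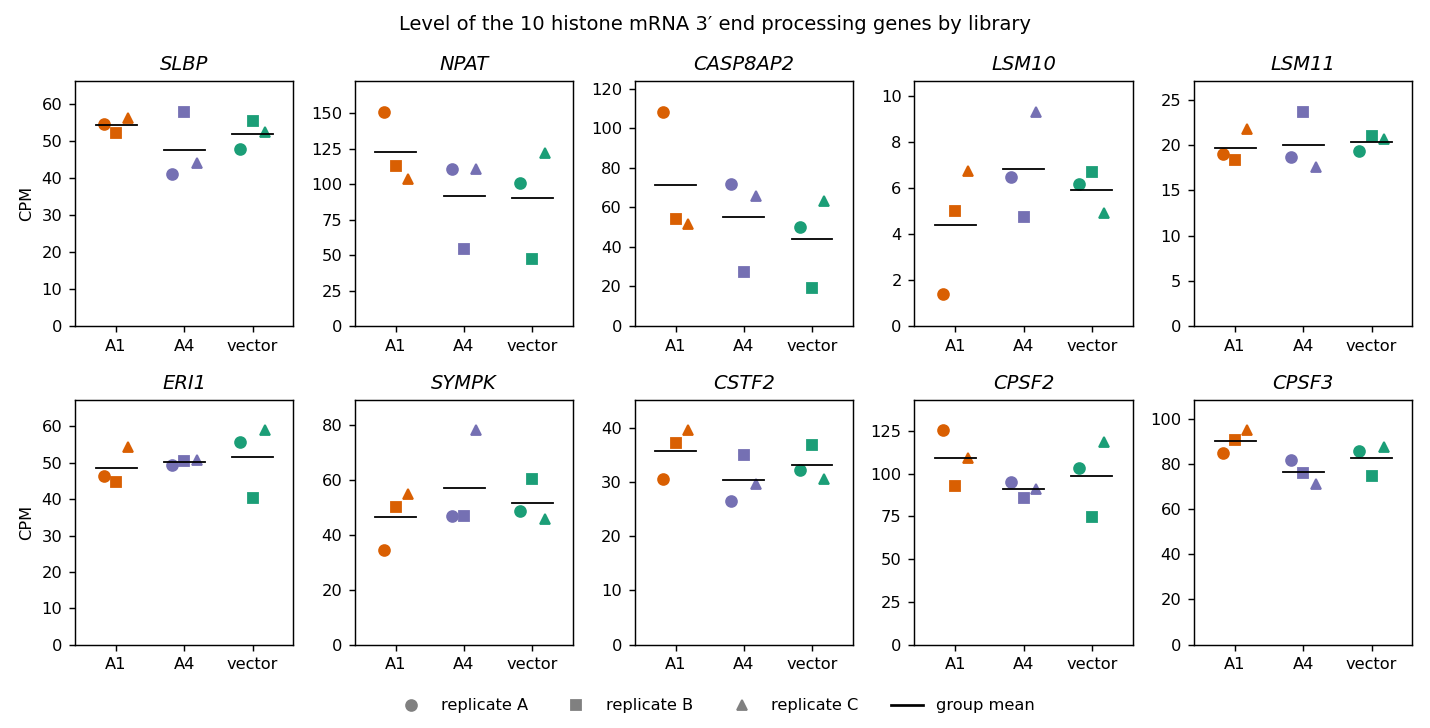
CPM of the 10 genes in the 9 libraries, 1 gene per panel with its own axis from 0, by group on the x axis, with symbols for replicates and a line at each group's mean. The replicate B squares of NPAT and CASP8AP2 are the lowest of clone A4 and of the vector group, and the groups overlap in every comparison with vector.

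The promoters of NPAT and CASP8AP2 are shown because both genes, on different chromosomes, varied together from library to library. Each runs from 250 bases before to 50 bases after the start of the gene (RefSeq, GRCh38.p14), on the gene's own strand, at chr11:108222589-108222888 for NPAT and chr6:89829630-89829929 for CASP8AP2. Capitals mark CCAAT boxes (CCAAT on either strand) and E2F cores (GGCGGGAA on either strand).
NPAT: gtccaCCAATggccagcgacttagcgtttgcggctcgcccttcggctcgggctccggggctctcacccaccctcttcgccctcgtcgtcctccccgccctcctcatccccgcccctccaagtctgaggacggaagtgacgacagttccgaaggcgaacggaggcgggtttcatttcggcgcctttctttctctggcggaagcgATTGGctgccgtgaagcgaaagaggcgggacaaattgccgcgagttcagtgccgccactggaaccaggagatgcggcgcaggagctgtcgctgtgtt
CASP8AP2: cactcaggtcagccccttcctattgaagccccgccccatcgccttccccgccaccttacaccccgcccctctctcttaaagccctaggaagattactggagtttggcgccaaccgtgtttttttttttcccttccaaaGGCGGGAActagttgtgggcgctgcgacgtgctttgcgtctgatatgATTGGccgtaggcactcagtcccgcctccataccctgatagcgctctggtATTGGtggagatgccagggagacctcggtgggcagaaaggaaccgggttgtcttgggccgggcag
Both held 2 CCAAT boxes, while 34.6% of the 35116 promoters of the same length held at least 1. Both also held 2 matches to the GC box GGGCGG, while 44.95% of promoters held at least 1. The share of promoters with 2 matches was not counted. The E2F core was found once, in CASP8AP2, and 3.16% of all promoters held it. Among the other members, LSM10 and CPSF2 had 1 CCAAT box each, and SLBP, LSM11, SYMPK, CSTF2 and CPSF3 had none in this window. These matches describe letters, not bound sites.

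NPAT starts 429 bases from ATM, the DNA damage kinase, which is transcribed in the opposite direction. ATM was read at 160 to 306 CPM in clone A1, 141 to 257 CPM in clone A4 and 105 to 223 CPM in the vector libraries, highest in clone A1 replicate A and lowest in vector replicate B like NPAT. Across the 9 libraries the Pearson correlation of log2 CPM with NPAT was 0.92 for ATM and 0.97 for CASP8AP2, and 0.90 and 0.97 over the 8 libraries without clone A1 replicate A. The 3 protein-coding genes most like NPAT among 9235 compared were STAG2, EXOC5 and SKIC3, at 0.99 each. For SLBP they were SENP2 (0.96), PAFAH1B2 (0.94) and SMYD2 (0.93). These are descriptions over only 9 libraries, in which the 3 of clone A1 and the 3 of clone A4 share a clone each, and which differ in depth and base composition.

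The deviations of NPAT and CASP8AP2 had the sign of those of other GC-poor transcripts in some libraries and not in others. Transcripts of NPAT, ERI1, CASP8AP2 and CPSF2 have the lowest GC content of the 10 (37.4%, 38.0%, 38.1% and 39.0%), and LSM10 and SYMPK the highest (57.8% and 60.6%). Over all tested protein-coding genes, clone A1 replicate A lay above the 9-library mean by a median of 0.45 (log2 CPM) for transcripts under 40% GC and below it at -0.94 for those of 60% GC or more. Vector replicate B ran the other way, from -0.52 to 0.53, and clone A4 replicate C from -0.16 to 0.84. NPAT deviated by 0.66 in clone A1 replicate A, -0.82 in clone A4 replicate B and -1.01 in vector replicate B, and CASP8AP2 by 1.08, -0.91 and -1.42. In clone A4 replicate C, where transcripts under 40% GC lay below their mean, NPAT and CASP8AP2 lay above theirs by 0.21 and 0.36. In clone A4 replicate B the median of all transcripts under 40% GC was only -0.12, and ERI1, of like GC content, deviated there by 0.02.

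**Figure D3:**
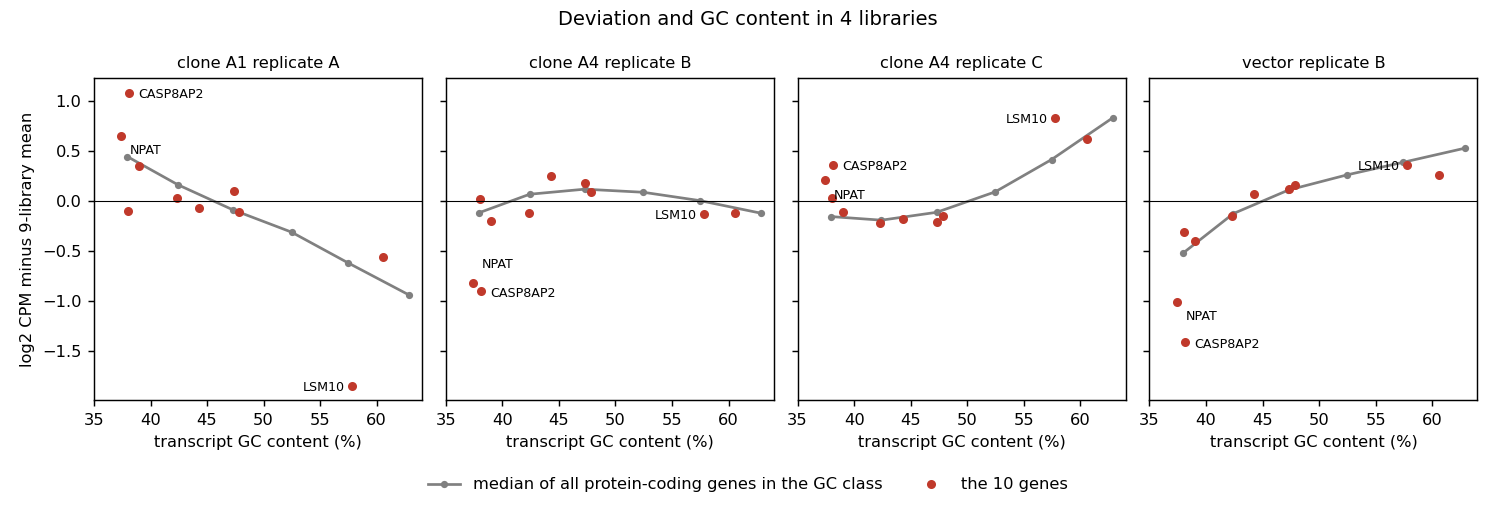
Deviation of log2 CPM from the 9-library mean against transcript GC content in 4 libraries, with the 10 genes as red points and the median of all tested protein-coding genes in each GC class as a grey line. NPAT and CASP8AP2 lie below the line in clone A4 replicate B and vector replicate B, and LSM10 lies far below it in clone A1 replicate A.

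**Figure D4:**
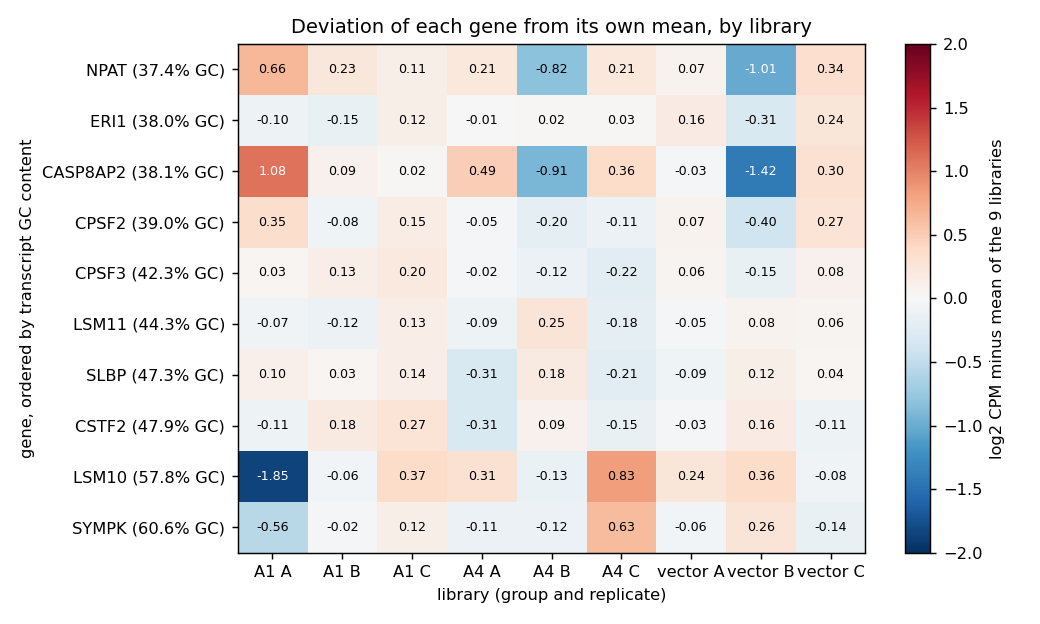
Deviation of each gene (rows, ordered by transcript GC content) from its own 9-library mean in each library (columns), in log2 CPM, with blue below and red above the mean. The strongest colours are those of LSM10 in clone A1 replicate A (-1.85) and CASP8AP2 in vector replicate B (-1.42).

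With an offset for GC content and transcript length in each library, an alternative chosen after seeing the data, the SD of log2 CPM over the 9 libraries went from 0.55 to 0.34 for NPAT, from 0.75 to 0.52 for CASP8AP2 and from 0.32 to 0.12 for SYMPK, while that of ERI1 went from 0.17 to 0.31 and those of LSM11 (0.14 to 0.16) and CPSF3 (0.14 to 0.16) moved little. The log2 fold change of CASP8AP2 in clone A1 against vector was then 0.49 ± 0.32 and that of NPAT 0.26 ± 0.22 (edgeR, Benjamini-Hochberg adjusted p = 0.630 and 0.737). The offset changes GC content and length together, and the part of either in the spread was not tested.

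SLBP (chr4:1692731-1712344, minus strand), the stem-loop binding protein that histone mRNAs need for processing, export and translation, was among the steadiest. Its level was 54.6, 52.2 and 56.2 CPM in clone A1, 41.1, 58.0 and 44.02 for clone A4, and 47.9, 55.5 and 52.5 CPM in the vector libraries. Clone A4 held both the lowest and the highest library, so all groups overlapped. The log2 fold change was 0.06 ± 0.18 in clone A1 and -0.12 ± 0.18 in clone A4 against vector (edgeR, Benjamini-Hochberg adjusted p = 0.955 and 0.9997), with 95% intervals from 0.801-fold to 1.37-fold and from 0.703-fold to 1.198-fold. Without clone A4 replicate B the value in clone A4 went to -0.31, still not past the threshold. SLBP protein is destroyed at the end of S phase, and its amount cannot be read from these mRNA levels. In these bulk samples fewer cells in a stage of the cycle and less RNA per cell cannot be told apart.

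Of the U7 ring proteins, LSM11 (chr5:157743712-157760709, plus strand), which binds CASP8AP2, hardly varied. It lay between 18.3 and 21.7 CPM in clone A1, 17.5 and 23.7 for clone A4, and 19.3 and 21.0 CPM in the vector libraries. Its SD of 0.14 (log2 CPM) was larger than that of only 3.25% of 3784 genes of like level. LSM10 (chr1:36391238-36397908, minus strand), its ring partner, was the least read of the 10: 1.41, 5.00 and 6.72 CPM in clone A1, 6.46, 4.75 and 9.32 for clone A4, and 6.15, 6.71 and 4.93 CPM in the vector libraries. The low library was clone A1 replicate A, in which it had 40 reads against 186 to 416 in the other 8. The log2 fold change of LSM10 in clone A1 against vector was -0.43 ± 0.47 (edgeR, Benjamini-Hochberg adjusted p = 0.867), and it was -0.01 without that library. U7 RNA itself (RNU7-1) had no read in any library, which allows up to 0.0585 to 0.106 CPM at 3 reads; this covers counting error only, and its transcript of 63 bases is short.

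ERI1 (chromosome 8, plus strand), the exonuclease, was read at 44.8 to 54.2 CPM in clone A1, 49.5 to 50.8 CPM in clone A4 and 40.2 to 59.0 CPM in the vector libraries. Without an offset, the 3 clone A4 libraries were closer together than those of either other group. With the offset for GC content and length, the vector libraries were the closest together, at 51.1 to 57.6 CPM. Clone A4 then ran from 46.3 to 60.9 CPM and clone A1 from 30.3 to 58.4 CPM. Between the clones the log2 fold change of ERI1 went from 0.05 to 0.27 with the offset. Its log2 fold change was -0.09 ± 0.18 in clone A1 and -0.04 ± 0.18 in clone A4 against vector (edgeR, Benjamini-Hochberg adjusted p = 0.938 and 0.9997).

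The cleavage complex shares its members with the machinery that cuts ordinary mRNAs before polyadenylation. CPSF3 (chr2:9423651-9473101, plus strand), the nuclease itself, was read at 84.7, 90.6 and 94.97 CPM in clone A1, 81.6, 76.1 and 71.0 for clone A4, and 86.0, 74.6 and 87.5 CPM in the vector libraries. All 3 clone A4 libraries lay below all 3 of clone A1, and the vector libraries overlapped both. It was the only 1 of the 10 genes whose groups did not overlap in that comparison, where 13.6% of all tested genes did not overlap. Against vector the count was 0 of 10 in clone A1 (14.2% of all genes), 0 of 10 in clone A4 (12.1%) and 0 of 10 for the NCBP2 libraries together (3.74%). A share of 1 in 10 is near the background. The log2 fold change of CPSF3 between the clones was -0.24 ± 0.15 (edgeR, Benjamini-Hochberg adjusted p = 0.812), and -0.14 with the offset for GC content and length. With that offset the clones overlapped, at 69.9 to 98.3 CPM in clone A1 and 72.8 to 84.7 CPM in clone A4. The lowest of these was clone A1 replicate A.

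CPSF2 (chr14:92121969-92172145, plus strand), the inactive relative that pairs with CPSF3, ranged from 92.8 to 125 CPM in clone A1, 85.8 to 95.2 CPM in clone A4 and 74.4 to 118 CPM in the vector libraries. CSTF2 (chrX:100820391-100841520, plus strand), the RNA-binding cleavage stimulation factor, ranged from 30.6 to 39.6, 26.6 to 35.1 and 30.6 to 36.8 CPM in the same order. SYMPK (chr19:45815410-45863194, minus strand), the scaffold of the complex, was read at 34.3, 50.04 and 55.1 CPM in clone A1, 46.8, 46.7 and 78.2 for clone A4, and 48.6, 60.5 and 45.8 CPM in the vector libraries. Clone A4 replicate C was high and clone A1 replicate A low, the order that GC-rich transcripts took in these libraries. SYMPK differed between the clones by a log2 fold change of 0.30 ± 0.25 (edgeR, Benjamini-Hochberg adjusted p = 0.841), which was 0.03 with the offset and -0.01 without clone A4 replicate C. The 40 nearest tested genes around SYMPK had a median of 0.30 in the same comparison. The like median was 0.11 around LSM10 (own value 0.64), -0.01 around CPSF3 (-0.24) and -0.003 around LSM11 (0.02). The part of the region in these values was not tested.

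Levels were compared between genes only per length. Per kilobase of merged exons in the vector libraries, SLBP stood highest at 27.6 ± 2.05 CPM per kb (SD, n = 3), followed by CPSF3 (22.4 ± 1.92), CSTF2 (12.1 ± 1.18), NPAT (11.9 ± 5.07), ERI1 (8.09 ± 1.57), CPSF2 (7.28 ± 1.65), CASP8AP2 (5.42 ± 2.78), SYMPK (4.90 ± 0.74), LSM10 (3.94 ± 0.61) and LSM11 (3.10 ± 0.14). Neighbours from CSTF2 to SYMPK in this order differed by less than the larger of their SDs. Per kilobase of 1 representative transcript CPSF3 came first at 36.6 ± 3.13 and SLBP second at 28.7 ± 2.13, and SYMPK stood at 12.7 ± 1.92, so the order depends on the length used. LSM11 was last on both scales.

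**Figure D5:**
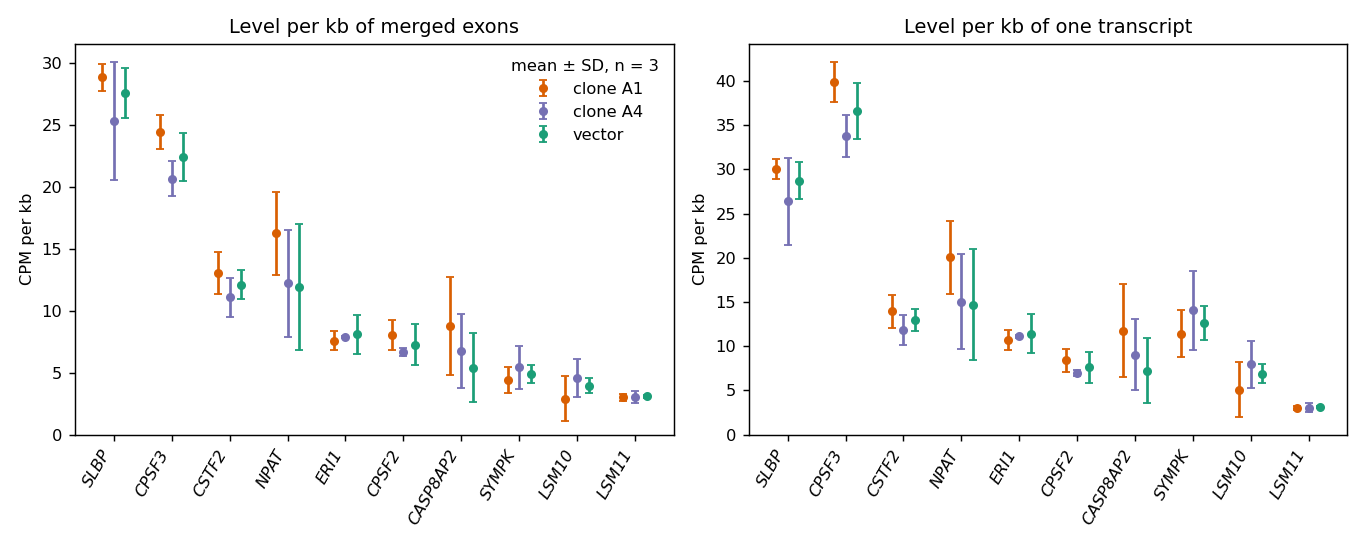
Level of the 10 genes per kb of merged exons (left) and per kb of 1 transcript (right), as mean ± SD of 3 libraries in each group. SLBP and CPSF3 stand above the other 8 genes in all groups on both scales, and LSM11 is low in all.

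The rest of the pathway gave few calls. No gene passed the test in any of the 4 comparisons among 16 further polyadenylation factors, 12 Sm ring and U7 partners (11 tested), 10 regulators of histone transcription, 18 factors of histone mRNA translation and decay, 8 genes of SLBP protein turnover, 16 S-phase genes and 14 mitosis genes. Of 11 cap-linked factors only NCBP2 itself was called, higher in clone A1 and in clone A4 against vector. It was not called for the NCBP2 libraries together (adjusted p = 0.123 by edgeR). Its partner NCBP1, the large subunit of the cap-binding complex, lay at 141 to 156 CPM in clone A1, 124 to 133 CPM in clone A4 and 127 to 167 CPM in the vector libraries. The median log2 fold changes of the lists in clone A4 against vector ran from -0.14 for the S-phase genes and -0.11 for SLBP turnover to 0.13 for the cap-linked factors, beside 0.03 over all genes. In that comparison 4 of the 16 S-phase genes did not overlap, all lower (MCM4, PCNA, RRM1 and TYMS), beside the 12.1% of all genes given above. In clone A1 against vector 2 did not overlap, both higher (MCM6 and CDC6), beside 14.2%, and for the NCBP2 libraries together 0 did. Between the clones, where 13.6% of all genes did not overlap, it was 3 of 16 S-phase genes, all lower in clone A4. There it was also 3 of 8 genes of SLBP turnover, all lower, and 3 of 11 cap-linked factors, 2 higher and 1 lower. The polyadenylation factors gave 2 of 16, the Sm ring and U7 partners 0 of 11 and the regulators of histone transcription 1 of 10. Translation and decay gave 2 of 18 and mitosis 1 of 14.

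Of the substrates, 39 of 67 replication-dependent histone genes could be tested, and their summed level was 3314, 4193 and 2499 CPM in the vector libraries, 2462, 4373 and 3839 CPM for clone A1, and 2552, 3012 and 4339 CPM for clone A4. The sums of the 3 groups overlapped. The neighbouring genes H2BC8 and H2AC8 were the only ones called by edgeR on the counts without an offset. H2BC8 was read at 53.8, 81.3 and 72.3 CPM in clone A1 and at or under 0.205 CPM in the other 6 libraries, and H2AC8 at 15.2, 30.0 and 30.9 CPM against at most 0.273 CPM. Both passed the filter on low counts only through clone A1, where they are high, so their calls against vector and against clone A4 give no support beyond these levels. H3C6, an H3 gene, was read at 8.11 to 10.4 CPM in clone A4, 0.242 to 1.72 CPM in clone A1 and 1.42 to 2.40 CPM in the vector libraries, so clone A4 overlapped neither group. Its log2 fold change in clone A4 against clone A1 was 3.01 ± 0.55 (edgeR, Benjamini-Hochberg adjusted p = 0.0698), and with the offset it was called at 2.77 ± 0.56 (adjusted p = 0.0309). H4C3, an H4 gene, lay below every vector library in both clones, at 0.0352 to 1.40 CPM in clone A1, 0.210 to 0.470 CPM in clone A4 and 1.54 to 3.61 CPM in the vector group, but was not called (adjusted p = 0.666 and 0.473 by edgeR). Among markers of other cell types the epithelial gene CDH1 did the same, at 0.598 to 1.90, 1.59 to 2.09 and 2.73 to 3.63 CPM, also without a call. Over all tested genes 3.74% lay apart from vector in the same direction in both clones (810 of 21682). Of the 39 tested histone genes only H4C3 did. In clone A1 against vector 6 of the 39 did not overlap, in clone A4 against vector 3 and between the clones 5. The shares of all tested genes were 14.2%, 12.1% and 13.6%.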

How the data were processed

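RNA from 9 U2-OS libraries was sequenced after ribosomal depletion. The deposited files hold raw counts of reads per gene, made with STAR 2.7.1a on GRCh38 per the submitters' processing notes; the annotation is not given in the sources used here. The third column, which held the sense-strand reads, was used, and the 4 opening lines, which carry no gene name, were dropped (44.5% to 63.6% of reads). Identifiers were matched to GENCODE 44 (60295 of 60609). Members and gene lists were chosen with earlier results of these data known. Counts were filtered with filterByExpr, scaled by TMM and tested with edgeR 4.0.16 in R 4.3.3 (robust quasi-likelihood fit, two-sided, Benjamini-Hochberg over 21682 genes, threshold 0.05), in 1 fit of 3 groups or, for the NCBP2 libraries together, of 2. Intervals are 95%. The common biological coefficient of variation was 0.41. The fit was tested on simulated data with known changes. How many of these it found at the spread of the real libraries is not given here. Alternatives were DESeq2 1.42.0, limma-voom 3.58.1 with library weights, other scalings, no filter, unstranded counts, a replicate block, counts summed per clone, each library left out and an offset for GC content and length (loess span 0.3). Log2 CPM used a prior count of 2. Named genes were the 10 members, NCBP2, ATM, listed genes called in any comparison or not overlapping in the same direction in both clones, and the 3 genes most like NPAT and SLBP with a mean log2 CPM of at least 3. Outside that rule, NCBP1, H3C6, the markers, the S-phase genes and the histone genes with sites shown were named after their values were seen. Promoters of 9 members were searched; that of ERI1 was not used here. Python 3.11.15 with pandas 2.3.3 and matplotlib 3.10.9 made tables and figures.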

Additional observations from a re-analysis of the deposited data

How the results depend on the processing

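No member was called in any of 720 values under the alternatives (smallest adjusted p 0.175). Their sign changed in 69, of which 38 were in the NCBP2 libraries together, where most values lie near 0, and 11 moved by over 1 SE. The number of all genes called depended on the setting; the cause was not tested. In clone A1 against vector (14) it was 240 with DESeq2, 282 with limma-voom, 312 with no filter, 7 with only the 6 libraries compared and 165 with the GC and length offset. In clone A4 against vector (25) it was 167, 214 and 163 with the first 3 of these and 120 with the offset. Between the clones (35) it was 232, 145, 231 and 167, and for the NCBP2 libraries together (4) 111, 205, 20 and 35. With counts summed per clone, which leaves 5 samples, it was 0, with 906 genes at an unadjusted p under 0.05, where edgeR on the libraries gave 1238, DESeq2 1852 and voom 2919. Leaving out 1 library gave 3 to 14, 7 to 41, 10 to 56 and 1 to 8. In the first of these ranges the 3 came without clone A1 replicate B, vector replicate A or vector replicate C; the 7 and the 1 came without vector replicate A, the 10 without clone A4 replicate A, the 41 and the 8 without clone A1 replicate A, and the 56 without vector replicate B. The labels do not say that the replicate letters mark a shared batch, so the letters were not taken as pairs. A correlation of deviations over 0.1 was seen in 6 of 9 same-letter pairs (-0.10 to 0.18). Pairs with different letters ran from -0.27 to 0.22, most of them negative. Whether the letters mark a batch was not tested. With the replicate block the counts were 38, 53, 51 and 13. LSM10 rests on 40 to 416 reads a library; the part of depth in its wide interval was not tested. With the offset, NCBP2 and H3C6 were also called between the clones.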
